A study of Mus musculus with 68 samples.

Results

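The genes described here make, cross-link and carry the connective tissue of skin papillomas, together with the surface and contractile proteins by which fibroblasts are known. The list held 40 genes, chosen by symbol from textbook roles and with earlier results of these data known. It covered collagens, glycoproteins and proteoglycans of the matrix, elastic fibre proteins, lysyl oxidases, and proteins of the fibroblast surface and contractile apparatus. Each gene was represented by the probeset with the highest mean over 68 arrays among those annotated with 1 gene symbol. Of the 40 genes, 38 had such a probeset, and all 38 passed the filter on low values (above the median of the array on at least 11 of the 68 arrays), 35 of them on all 68. The whole table held 45101 probesets, of which 21581, for 12605 genes, were tested. Fbn1 had no probeset named for it, and Loxl2 only probesets shared with another gene, so neither was measured here.

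The samples were 68 benign papillomas of 37 FVBBX mice, the progeny of [SPRET/Ei X FVB/N] F1 animals crossed back to FVB/N, so that every mouse has its own mix of 2 genomes. All mice received 1 dose of the mutagen DMBA on shaved dorsal skin at 8 to 12 weeks of age and then the tumor promoter TPA, with no untreated skin among these arrays. Of the 37 mice, 12 were papilloma susceptible (9 to 35 papillomas at 20 weeks, 22 arrays), 6 were resistant (0 or 1 papilloma, 11 arrays) and 19 were intermediate (2 to 7 papillomas, 35 arrays). The first papilloma appeared at 8 to 12 weeks in susceptible mice, at 8 to 28 weeks in the 5 resistant mice with a record, and at 10 to 18 weeks in the 18 intermediate mice with one. Each array held the RNA of a whole papilloma, and 31 mice gave 2 papillomas. The mean of the papillomas of 1 mouse was used as its value, in log2 units of fluorescence. In such bulk tissue, fewer fibroblasts and less RNA per fibroblast cannot be told apart.

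A papilloma is an outgrowth of epidermis over a core of connective tissue. Fibroblasts of that core secrete collagen chains that assemble into triple helices, are cut by proteinases outside the cell, align into fibrils and are cross-linked by lysyl oxidases. Glycoproteins and proteoglycans bind the fibrils and set their width and spacing, and a separate set of collagens builds the basement membrane between epidermis and stroma and around vessels. Stromal cells of tumors are known to increase this production, and some take on smooth muscle actin, as myofibroblasts do in wounds.

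Levels of marker genes of several cell types were set beside those of the members. The levels of all 6 fibroblast markers (Dcn, Lum, Pdgfra, Col1a1, Col1a2 and Col3a1) were above the array median on all 68 arrays, as were those of basal keratinocytes (Krt5, Krt14, Krt15, Trp63 and Itga6). These 6 markers are themselves members, so their levels are no independent measure and cannot show which cells the RNA of the members came from. Over the 37 mice, the mean level of the members correlated with the mean of 8 pericyte and smooth muscle markers (r = 0.89, rho = 0.84), of 7 endothelial markers (r = 0.81, rho = 0.78) and of 6 leukocyte markers (r = 0.69, rho = 0.64). The corresponding values were r = -0.24 and rho = -0.32 for 5 markers of cornified epidermis, and r = -0.11 and rho = -0.03 for the basal keratinocyte markers. The members moved with the markers of vessels and immune cells across mice, and the part of those cells in the results below was not tested.

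Some libraries stood apart. The first papilloma of resistant mouse 32 had a mean level of 6.24 over the 5 cornified markers, against 12.04 in the second papilloma of the same mouse. Its 3'/5' ratio of the Actb control probesets, a sign of RNA quality, was -0.24 on the log2 scale, against 0.59. The gap in this ratio was wider in resistant mouse 37 (-0.27 in the first, 1.71 in the second) and intermediate mouse 2 (0.73 and 2.13). Levels of Xist and Eif2s3y went against the labelled sex in 8 arrays of 6 mice (mice 12, 13, 15, 21, 24 and 35). The highest mean levels of the members belonged to resistant mice 34 (10.79) and 35 (10.74) and susceptible mouse 29 (10.72), and the lowest to intermediate mice 15 (8.85) and 13 (8.89). Classes were spread unevenly over 7 start cohorts. Cohort 1 held 5 susceptible mice, 0 resistant mice and 1 intermediate mouse, and 8 of the 9 mice of cohort 6 were intermediate. Values without mouse 32, the resistant mice 34 and 35, or the mice of doubtful sex label stand beside the results below that they moved most.

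Promoter stretches are shown for the genes whose joint or separate movement the results describe: Col1a2, Col3a1 and Sparc, which followed Col1a1 closely, Col7a1, which did not within mice, and the shared start region of Col4a1 and Col4a2. The RefSeq table used (GRCm38.p6) held a promoter for 23 of the 38 members. Capitals mark CCTCCC on either strand, a GC-rich hexamer within the consensus of Sp-family and related zinc finger proteins. Each stretch ends at the base before the start site, at chr6:4505498-4505617 on the plus strand for Col1a2, chr1:45311418-45311537 on the plus strand for Col3a1, chr11:55420081-55420200 on the minus strand for Sparc and chr9:108953466-108953585 on the plus strand for Col7a1. For Col4a1 and Col4a2 the 22 bases at chr8:11312805-11312826 are given on the plus strand. They run from the start of Col4a2, read on the plus strand, to that of Col4a1, read on the minus strand, 21 bases apart. Both transcripts therefore hold these bases, which overlap at the starts and are not a stretch before either start.
Col1a2: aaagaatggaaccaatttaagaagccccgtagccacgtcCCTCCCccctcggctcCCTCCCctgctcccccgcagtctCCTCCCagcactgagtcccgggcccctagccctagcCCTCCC
Col3a1: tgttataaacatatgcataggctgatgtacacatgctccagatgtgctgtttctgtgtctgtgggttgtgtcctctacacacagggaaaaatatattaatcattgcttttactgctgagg
Sparc: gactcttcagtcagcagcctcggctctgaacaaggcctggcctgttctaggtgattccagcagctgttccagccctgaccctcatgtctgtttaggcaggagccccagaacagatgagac
Col7a1: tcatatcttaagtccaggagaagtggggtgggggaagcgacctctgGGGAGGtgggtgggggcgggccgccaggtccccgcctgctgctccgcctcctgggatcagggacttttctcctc
Col4a1 and Col4a2: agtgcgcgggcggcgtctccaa
In 120 bases, Col1a2 held 4 matches, Col7a1 held 1, and Col3a1 and Sparc held 0. Within 250 bases before the start, CCTCCC was found for 18 of 23 member genes (78.3%), against 40.4% of all 27025 genes. A gene counted if any of its listed promoters held a match. The median GC content of the first listed window of each gene was 56.4% for members and 52% for all. CCAAT was found in 8 members (34.8%), against 37.5% of all genes, and TATAAA in 4 (17.4%: Col3a1, Postn, Thbs2 and Tnc), against 14.3%. The 2 genes with no CCTCCC in the printed stretch followed Col1a1 as closely as most members, and these matches are a description of letters only.

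The members varied more between mice than most genes. Their median SD over 37 mice was 0.58 on the log2 scale, against 0.28 over all tested probesets, and their median range from the lowest to the highest mouse was 2.34, against 1.25. The proteoglycan genes Dcn and Lum, whose products coat collagen fibrils, had the highest SD of the members. Dcn lay between 8.84 (mouse 13) and 12.30 (mouse 31), with a median of 10.95 and an SD of 0.93. Lum lay between 8.67 (mouse 32) and 12.61 (mouse 31), with a median of 11.23 and an SD of 0.88. Levels of the fibrillar collagen genes were more even, and Col1a1, the major chain of type I collagen, lay between 11.44 (mouse 10) and 13.79 (mouse 34), with a median of 12.40. Fbln1, which encodes a glycoprotein of elastic fibres and basement membranes, had the lowest SD (0.33). Intermediate mouse 15 was lowest for 15 members, among them Fn1, Bgn, Lox, Acta2 and Pdgfrb.

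**Figure D1:**
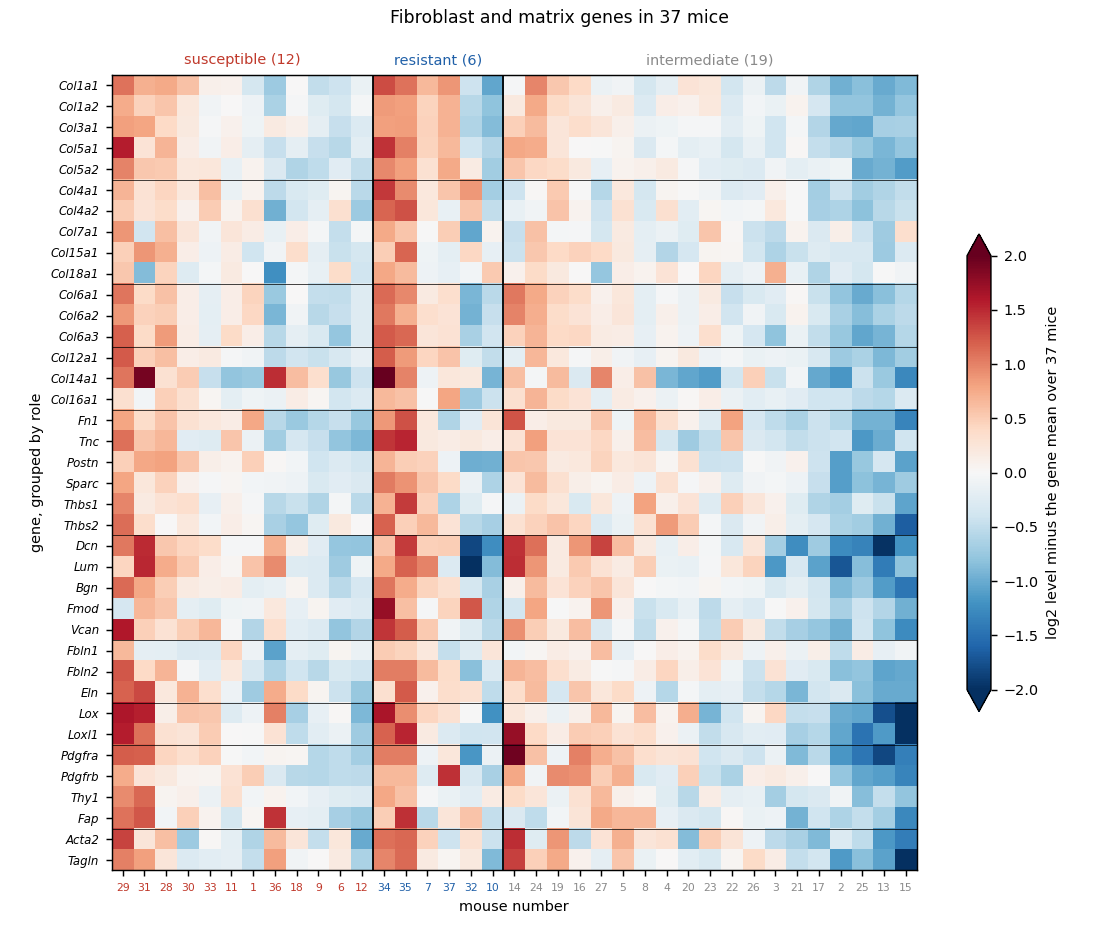
Log2 level of 38 members (rows, grouped by role) in 37 mice (columns, grouped by class and ordered within each class by mean member level), each minus the mean of that gene over all mice. Most columns are of 1 colour from top to bottom: mice 34, 35 and 29 are high for most genes, and mice 15 and 13 are low.

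The members rose and fell together across mice. Over the 703 pairs of members, the median Pearson correlation across 37 mice was 0.64 (Spearman 0.60), and 537 pairs (76.4%) exceeded 0.5. Among all pairs of tested probesets the median was 0.0034 and 3.93% exceeded 0.5. The closest pair was Col6a1 and Col6a2 (r = 0.99), which encode 2 chains of type VI collagen, followed by Col1a1 and Col1a2 (r = 0.97), the 2 chains of type I collagen. Only 7 pairs were below 0, and the lowest was Col14a1 with Col18a1 (r = -0.15). Left out of the mean 1 at a time, Bgn (r = 0.95), Sparc (r = 0.95) and Col5a1 (r = 0.93) were closest to the mean of the other members, and Col7a1 (r = 0.49), Fbln1 (r = 0.36) and Col18a1 (r = 0.32) were farthest.

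Genes of 1 role differed in how tightly they were tied. The median correlation within a role was 0.94 for the 3 beaded filament collagen genes (Col6a1, Col6a2 and Col6a3), 0.89 for the 5 fibrillar collagen genes and 0.85 for Lox with Loxl1, the lysyl oxidases. It was 0.70 among 5 proteoglycan genes, 0.69 among 6 glycoprotein genes and 0.81 between Acta2 and Tagln, the contractile genes. The 5 basement membrane and anchoring collagen genes had a median of 0.46, although Col4a1 and Col4a2, neighbours on opposite strands that encode chains of type IV collagen, had r = 0.91 (rho = 0.91). The 3 elastic fibre genes reached 0.52 and the 3 fibril-associated collagen genes 0.54, with no test between roles.

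The genes outside the list most like it over 37 mice, by correlation with the mean of the standardized members, were Slit3 (r = 0.93), Aebp1 (r = 0.93), Fstl1 (r = 0.93), Pcolce (r = 0.93), Tbc1d2b (r = 0.92), Fndc1 (r = 0.92), Cdh11 (r = 0.91), Olfml3 (r = 0.91), Mmp2 (r = 0.91) and Adam12 (r = 0.89). The Spearman values lay between 0.84 for Adam12 and 0.94 for Mmp2. Pcolce speeds the cutting of procollagen, Mmp2 degrades collagen of basement membranes, and Cdh11 is a cadherin of mesenchymal cells.

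The main chain of type I collagen was then used as a yardstick. Over mouse means, the limma slope against Col1a1 was past the threshold (Benjamini-Hochberg adjusted p under 0.05 over all tested probesets) for 34 of 37 members, all of them upward, against 11.1% of all tested probesets. The median slope was 0.68 log2 units for each log2 unit of Col1a1. The steepest was Dcn (1.04, SE 0.16, adjusted p = 3.0e-05). The 12 members of smallest p were Col1a2, Col12a1, Col5a1, Sparc, Col3a1, Bgn, Col6a3, Col6a1, Fbln2, Col6a2, Col5a2 and Col16a1, with slopes of 0.48 (Col16a1) to 0.82 (Col5a1). Among them are the partner chain of type I collagen, the chain of type III collagen and SPARC, a collagen-binding glycoprotein. So are the Col5a1 and Col5a2 chains of type V collagen, which nucleates fibrils.

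This count depended on the probeset that stood for Col1a1. The probeset of highest mean was used, with mouse values between 11.44 and 13.79 and r = 0.97 with Col1a2. The other Col1a1 probeset, above the array median on all 68 arrays too, correlated at 0.59 with it and at 0.62 with Col1a2, and its median correlation with the other members was 0.32, against 0.69. With that probeset 3 of 37 members passed over mice (Col1a2, Col12a1 and Col16a1), against 0.732% of all tested probesets, and 19 of 37 within mice, against 3.58%. The slopes of Fn1 (-0.02) and Fbln1 (-0.06) over mice were then below 0. The pairwise correlations among members given above do not rest on this choice except in the pairs that hold Col1a1.

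Pearson and Spearman correlations with Col1a1 were tested over 37 mice by 100000 permutations, 37 relations in all, of which 1e-05 was the smallest p that could be given. Col1a2 reached r = 0.97 (rho = 0.96, both permutation p = 1e-05) and Col3a1 r = 0.90 (rho = 0.91, both permutation p = 1e-05). The fibril-associated Col12a1 had r = 0.93 (rho = 0.90), and r without mice 34 and 29, the mice farthest from the Col1a1 median, was 0.93. The points of Col1a2 lay almost on a line. Along it, resistant mice 10 and 32 stood at Col1a1 levels of 11.44 and 12.06. The other resistant mice stood at the upper end, between 13.12 (mouse 7) and 13.79 (mouse 34).

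Glycoprotein genes other than Sparc had lower correlations. Postn, which encodes a matricellular protein of tumor stroma, had r = 0.75 (rho = 0.75, both permutation p = 1e-05), and 0.73 without mice 34 and 29. Tnc, a glycoprotein of wound and tumor matrix, had r = 0.69 (permutation p = 1e-05) and rho = 0.63 (permutation p = 8e-05), and r = 0.60 without those mice. Fn1, fibronectin, had r = 0.55 (permutation p = 0.00052) and rho = 0.50 (permutation p = 0.00176), and r = 0.48 without those mice. Dcn stood at r = 0.72 and rho = 0.73 (both permutation p = 1e-05), with 0.72 without those mice. With the probeset of highest variance for each gene, the limma slopes of Fn1 (0.24, adjusted p = 0.399) and Tnc (0.41, adjusted p = 0.131) did not pass. Those probesets had low mean levels, 4.95 for Fn1 and 5.07 for Tnc.

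The contractile gene Acta2, smooth muscle actin, had r = 0.49 (permutation p = 0.00192) and rho = 0.45 (permutation p = 0.00489), and r = 0.38 without mice 34 and 29, when its slope did not pass (adjusted p = 0.125). Col7a1, which encodes the anchoring fibrils below the epidermis and is made by keratinocytes as well as fibroblasts, had r = 0.60 (permutation p = 0.00014) and rho = 0.54 (permutation p = 0.00059), and r = 0.49 without those mice. The 3 members whose slope did not pass were Fap, a serine protease of activated fibroblasts (slope 0.42, adjusted p = 0.0627), Col18a1 (0.21, adjusted p = 0.173) and Fbln1 (0.17, SE 0.08, adjusted p = 0.168).

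**Figure D2:**
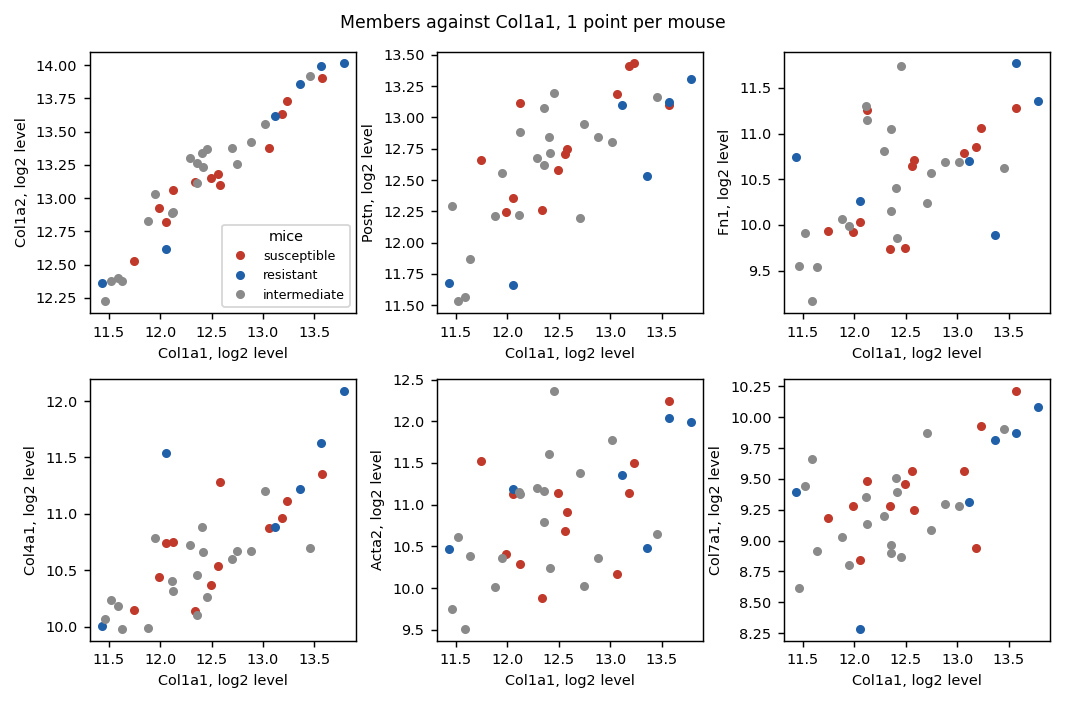
Log2 level of 6 members (vertical axes) against the log2 level of Col1a1 (horizontal axes), with 1 point for each of 37 mice coloured by class. Col1a2 forms a narrow band (r = 0.97), and Acta2 (r = 0.49) and Fn1 (r = 0.55) scatter widely.

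The relation was present in cohorts that could be examined alone, with different strength. In cohort 1 (6 mice) all 37 members correlated positively with Col1a1, with a median r of 0.84, and in cohort 6 (9 mice) all 37 did, with a median of 0.70. In cohort 2 (8 mice) 31 of 37 were positive, with a median of 0.44 and the lowest value at -0.52 for Fap. The other cohorts held fewer than 6 mice. With sex and start cohort in the limma fit, 35 of 37 members passed, and without mouse 32, 35 did. The share of all tested probesets that passed is not given for these fits, so their counts cannot be set against a background. Without the 6 mice of doubtful sex label 28 passed, against 2.37% of all tested probesets, and Fn1 and Acta2 were among those lost. Without mice 34 and 29, 32 passed, against 7.85% of all tested probesets.

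Further genes of matrix making and turnover were compared with Col1a1 in the same fit, in which 11.1% of all tested probesets passed in either direction. Of 17 further matrix genes tested, 15 passed upward over mice, with Mfap4, a microfibril-associated protein, steepest (1.05) and Hspg2, perlecan, flattest (0.03). Of 11 turnover genes 7 passed upward (Mmp2, Mmp11, Mmp14, Timp1, Timp3, Ctsk and Adamts5), of 10 signal genes 6 (Tgfb2, Tgfb3, Tgfbr2, Ctgf, Inhba and Pdgfb) and of 11 regulators or markers of fibroblast state 8. Of 13 genes of collagen folding and processing 4 passed (Plod1, Serpinh1, Pcolce and Bmp1), and P4hb, the common subunit of prolyl hydroxylase, had a slope of -0.08. Of the markers of other cells, 7 of 7 endothelial, 6 of 8 pericyte and smooth muscle, 2 of 6 leukocyte, 0 of 5 cornified and 0 of 5 basal keratinocyte markers passed.

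By their labels, pairs of papillomas from 1 mouse share host genotype, class and cohort. They were used to see whether the members also moved together there. Some pairs from the mice of doubtful sex label held 1 array that went against the label and 1 that did not. For those pairs a shared host is in doubt. Across 31 pairs, the difference of a member (first minus second papilloma) followed the difference of Col1a1 for 34 of 37 members, all upward, against 32.1% of all tested probesets, with a median slope of 0.83. The 12 members of smallest p were Col1a2, Col3a1, Postn, Col6a3, Thbs2, Bgn, Sparc, Col12a1, Fbln2, Col5a1, Col6a2 and Col5a2, and their slopes lay between 0.71 (Col5a2) and 1.01 (Fbln2). Dcn was again the steepest (1.71, SE 0.20, adjusted p = 2.7e-07). The basement membrane genes Col4a1 (0.34, SE 0.06) and Col4a2 (0.36, SE 0.07) passed with slopes below that median.

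Over the same 31 pairs, Col1a2 had r = 0.97 (rho = 0.96) and Col3a1 r = 0.94 (rho = 0.94), each with permutation p = 1e-05. Postn had r = 0.92 (rho = 0.89, both permutation p = 1e-05), Fn1 r = 0.76 (permutation p = 2e-05; rho = 0.79, permutation p = 1e-05) and Acta2 r = 0.65 (permutation p = 0.0001; rho = 0.50, permutation p = 0.0042). Without the 2 pairs farthest from the median Col1a1 difference, r was 0.94 for Col1a2, 0.89 for Postn, 0.61 for Fn1 and 0.38 for Acta2. Col7a1 had the flattest slope of all (0.11, SE 0.10, adjusted p = 0.418) and r = 0.19 (permutation p = 0.310; rho = 0.36, permutation p = 0.0451). Without mouse 32, its slope was 0.26 with adjusted p = 0.0497, and 33 members passed in all, against 20.7% of all tested probesets. Col18a1 (0.25, adjusted p = 0.118) and Fbln1 (0.18, adjusted p = 0.123) did not pass, as over mice.

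Within mice, 32.1% of all tested probesets passed in either direction. Beside that share, 5 of 6 leukocyte markers (Ptprc, Cd68, Csf1r, Itgam and Lyz2), 6 of 7 endothelial, 4 of 8 pericyte and smooth muscle and 4 of 5 mast cell markers rose with Col1a1. Of 5 cornified markers 3 fell (Lor, Krt1 and Krt10), and 0 of 5 basal keratinocyte markers passed. The share of cells of each kind in these differences was not tested. Among the further lists 15 of 17 matrix, 9 of 11 turnover, 9 of 10 signal, 10 of 11 regulator and 9 of 13 collagen-making genes passed upward. With the difference of the cornified marker mean as a covariate, 33 of 37 members passed, with the share of all tested probesets not given. Without the 3 pairs of largest Col1a1 difference (mice 32, 10 and 18), 29 did, against 8.39% of all tested probesets. Acta2 was not among them (slope 0.39, adjusted p = 0.209).

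Single pairs show how far papillomas of 1 host can lie apart. The mean absolute difference over the 38 members ran between 0.18 and 2.24 log2 units, with a median over pairs of 0.36. At least 30 of 38 members lay on 1 side in 19 of 31 pairs, and at least 35 in 9. In mice 18 and 22 all 38 members were higher in the second papilloma, and in mouse 29 all 38 were higher in the first.

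The widest pair was that of resistant mouse 32, with a mean absolute difference of 2.24. Its first papilloma had a Dcn level of 11.27, and its second 6.73. For Lox, the enzyme that starts collagen cross-linking, the first had 11.04 and the second 6.08, and for Tnc the first had 12.10 and the second 8.08. Of the 38 members 37 were higher in the first papilloma, the one with nearly no cornified markers and a low Actb ratio. The exception was Col7a1, at 7.90 in the first and 8.67 in the second. Fmod, a small proteoglycan of tendon and skin, stood at 9.28 in the first and 5.57 in the second. The leukocyte markers averaged 9.34 in the first and 7.11 in the second, and the adipocyte markers 9.93 and 7.48, and the part of those cells was not tested.

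The next was resistant mouse 10, with a mean absolute difference of 1.45 in the opposite direction. Dcn was at 7.81 in the first papilloma and 11.34 in the second, and Col1a1 at 10.57 and 12.30. All members but Col15a1 (7.03 in the first, 6.82 in the second) were higher in the second. The cornified markers averaged 12.19 in the first and 11.50 in the second. The leukocyte markers averaged 8.32 in the first and 9.50 in the second, the mast cell markers 7.76 and 8.41, and the adipocyte markers 7.11 and 7.68. The part of those cells in this pair was not tested.

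In intermediate mouse 14 the mean absolute difference was 1.09, and 31 members were higher in the second papilloma. Fn1 differed most among the genes described, at 10.01 in the first and 13.47 in the second, and Pdgfra, the receptor of dermal fibroblasts, was at 9.37 and 12.16. Col1a1, in contrast, was at 12.29 and 12.62, Col1a2 at 13.09 and 13.64, and Col7a1 at 9.47 and 8.27. The striated muscle markers averaged 5.14 in the first and 7.56 in the second, the mast cell markers 7.74 and 9.62, and the leukocyte markers 8.86 and 10.14. Their part in this pair was not tested.

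**Figure D3:**
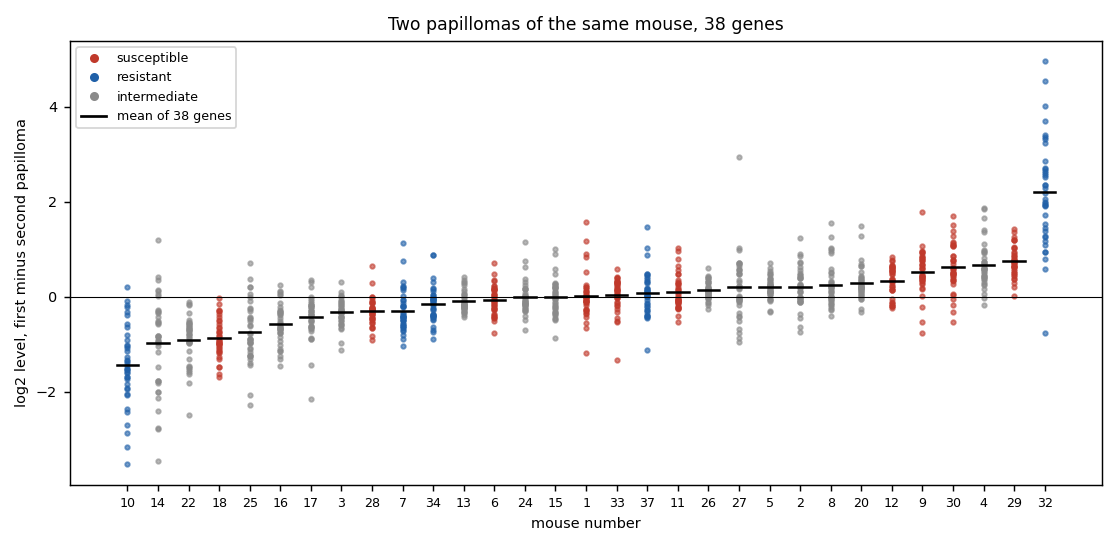
Log2 difference between the first and the second papilloma (vertical axis) for 38 members in each of 31 mice (horizontal axis, ordered by mean difference and coloured by class), with 1 point per gene and a bar at the mean. Mice 32 and 10, both resistant, form the ends, with 37 of 38 members on 1 side in each.

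Likeness between papillomas of 1 mouse was measured by the intraclass correlation (ICC), the share of variance between mice. Of 38 members 29 passed the F test (adjusted p under 0.05), against 71.0% of all tested probesets, and their median ICC was 0.40, against 0.44. Type IV collagen genes were the most alike within a mouse: Col4a1 had an ICC of 0.80 (adjusted p = 7.9e-07) and Col4a2 of 0.69 (adjusted p = 5.9e-05). Col7a1 (0.65, adjusted p = 0.00018) and Pdgfrb, the receptor of pericytes and fibroblasts (0.63, adjusted p = 0.00031), followed. The other basement membrane collagens, Col15a1 (0.34) and Col18a1 (0.25), stood lower.

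At the other end, Fn1 (0.10, adjusted p = 0.301), Fmod (0.12, adjusted p = 0.266), Tnc (0.15, adjusted p = 0.231) and Dcn (0.19, adjusted p = 0.163) did not pass. Col1a1 (0.52), Acta2 (0.52), Postn (0.45) and Col3a1 (0.34) lay between and passed. Without mouse 32, 34 members passed (74.7% of all tested probesets), with a median of 0.52, and Tnc was among them (0.43, adjusted p = 0.0135). Without the 6 mice of doubtful sex label, 16 passed (58.2% of all tested probesets), the median was 0.32, and Col3a1 (0.28, adjusted p = 0.105) did not pass.

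**Figure D4:**
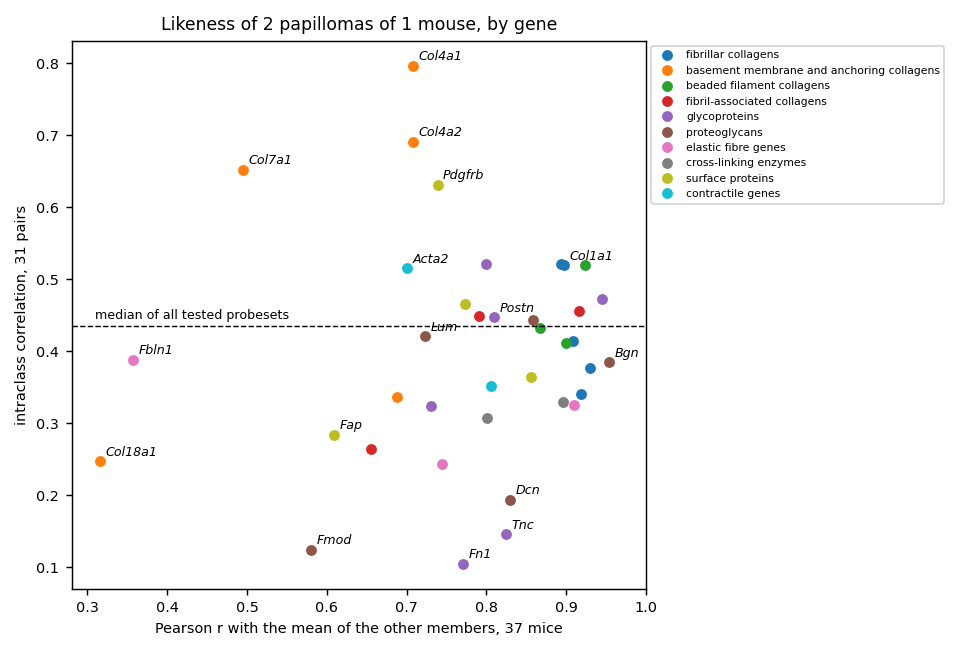
Intraclass correlation over 31 pairs (vertical axis) against the correlation of each member with the mean of the other members over 37 mice (horizontal axis), with 1 point per gene coloured by role. Col4a1 (0.80) and Col4a2 (0.69) lie above the members tied most closely to the list, such as Bgn, and Fn1, Fmod, Tnc and Dcn lie lowest.

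Susceptible and resistant mice were compared to see whether the matrix genes differed with the number of papillomas. In susceptible minus resistant mice, 0 of 38 members passed in limma, against 0.0510% of all tested probesets, and 0 passed with arrays fitted under a random effect for mouse. At an unadjusted p under 0.05 there were 2 members (9.52% of all tested probesets). Of the 38 differences 34 were below 0, with a median of -0.20, against 0.01 over all tested probesets. Every range overlapped between the classes for the genes described.

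Tnc had a lowest, median and highest level of 8.99, 9.66 and 10.99 in susceptible mice, and of 10.03, 10.09 and 11.42 in resistant mice (difference -0.68, SE 0.31, adjusted p = 0.484). Fmod had 5.85, 6.06 and 6.86 in susceptible mice, and 5.58, 6.71 and 7.92 in resistant mice (-0.58, SE 0.25, adjusted p = 0.475). Col4a1 had 10.14, 10.74 and 11.35 in susceptible mice, and 10.00, 11.38 and 12.09 in resistant mice (-0.50, SE 0.25, adjusted p = 0.534). The highest mouse in each of these was resistant mouse 34 or 35, but the lowest Fmod and Col4a1 of both classes was in resistant mouse 10. Col4a2 (-0.41), Col18a1 (-0.39) and Sparc (-0.31) completed the 6 members of smallest p.

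The type I and III collagen genes differed by less. Col1a1 had 11.74, 12.52 and 13.57 in susceptible mice, and 11.44, 13.24 and 13.79 in resistant mice (-0.31, SE 0.33). Col3a1 differed by -0.09, Fn1 by -0.29, Acta2 by -0.34 and Col7a1 by -0.04, each with an SE of at least 0.23. Above 0 stood Lum (0.40), Dcn (0.26), Postn (0.25) and Pdgfra (0.01). For Lum, the lowest, median and highest levels were 10.40, 11.38 and 12.61 in susceptible mice, and 8.67, 11.35 and 12.28 in resistant mice.

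Leaving out any 1 susceptible or resistant mouse kept the median below 0 (-0.38 to -0.06). Without mice 34 and 35 together, 28 of 38 differences were above 0, with a median of 0.11, and without mouse 32 only 1 was, with a median of -0.36. Without the 6 mice of doubtful sex label 15 were, with a median of -0.03, and with the Actb ratio as a covariate 0 were, with a median of -0.38. Within cohorts, the median over members was -0.35 in cohort 2 (2 susceptible and 2 resistant mice), 0.30 in cohort 3 (3 and 1) and -0.85 in cohort 7 (1 and 1). The cornified markers were 5 of 5 higher in susceptible mice, with a median difference of 1.32, and 0 of 5 passed. Their part in the differences of the members was not tested.

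Resistant minus intermediate mice gave the widest median of the 3 class comparisons. All 38 were above 0, with a median of 0.42, against -0.01 over all tested probesets, but 0 of 38 passed in limma, against 0.778% of all tested probesets. At an unadjusted p under 0.05 there were 11 members (18.2% of all tested probesets). With arrays fitted under a random effect for mouse 1 passed, against 1.22% of all tested probesets. Col4a1 came closest (0.76, SE 0.20, adjusted p = 0.0529), with 10.00, 11.38 and 12.09 in resistant mice and 9.98, 10.45 and 11.20 in intermediate mice. In 4 of the 6 resistant mice (32, 34, 35 and 37) its level was above that of every intermediate mouse, and in mouse 10 it was near the lowest of them.

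Fmod differed by 0.74 (SE 0.23, adjusted p = 0.0868), with 5.58, 6.71 and 7.92 in resistant mice and 5.23, 5.91 and 7.07 in intermediate mice. Tnc differed by 0.75 (SE 0.27, adjusted p = 0.144), with 10.03, 10.09 and 11.42 in resistant mice and 8.75, 9.55 and 10.71 in intermediate mice. Col4a2 (0.58), Col12a1 (0.55) and Sparc (0.50) were next by p. Col1a1 differed by 0.61, Acta2 by 0.49, Fn1 by 0.39, Col3a1 by 0.38, Col7a1 by 0.24, Dcn by 0.12 and Postn, the lowest, by 0.03. By role, the median difference was 0.58 for the lysyl oxidases, 0.52 for the fibrillar collagens, 0.42 for the basement membrane and anchoring collagens and 0.29 for the beaded filament collagens, with no test between them.

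Again the resistant mice were unlike. Without mouse 10, 3 members passed, against 3.05% of all tested probesets: Col4a1 (1.00, adjusted p = 0.0061), Fmod (0.98, adjusted p = 0.0160) and Col4a2 (0.76, adjusted p = 0.0454). Without mice 34 and 35, 0 passed, with a median of 0.09 and 28 of 38 above 0. Without mouse 32, 0 passed, with a lowest adjusted p of 0.144, a median of 0.53 and all 38 above 0. Then 18 members had an unadjusted p under 0.05, but the share of all tested probesets at that p was not computed. With the Actb ratio as a covariate 2 passed, against 4.45% of all tested probesets. Without the 6 mice of doubtful sex label the median was 0.21, with 33 above 0. Over all alternatives, the adjusted p of Col4a1 lay between 0.0061 and 0.375. Within cohorts, the Col4a1 difference was 0.54 in cohort 2 (2 resistant and 4 intermediate mice), 1.56 in cohort 4 (1 and 1), 1.00 in cohort 5 (1 and 2) and 1.91 in cohort 7 (1 and 3), and the median over members was -0.02, 1.83, 0.45 and 1.26 in the same cohorts. In the same comparison 2 of 5 cornified markers (Krt1 and Krt10) were called lower, with a median of -1.20 over the list, and all 7 endothelial markers were above 0, with a median of 0.42 and Kdr called. The part of either in the Col4a1 difference was not tested.

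**Figure D5:**
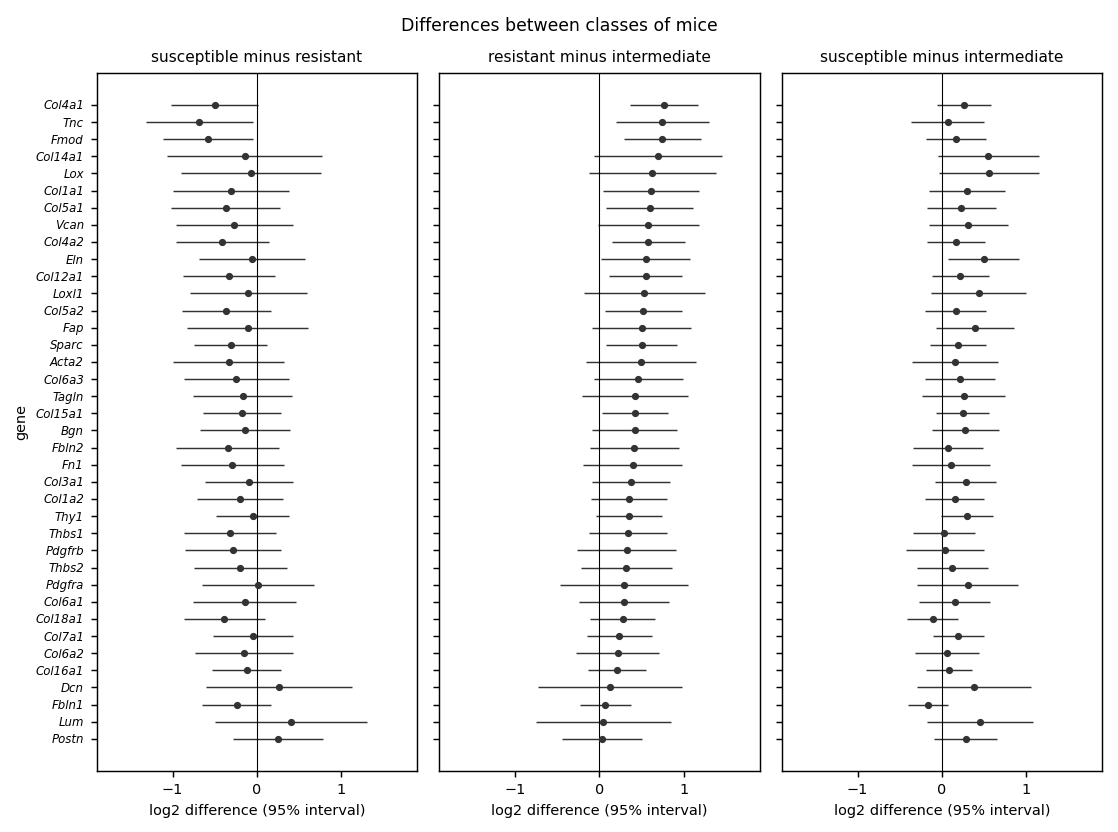
Fitted log2 differences of 38 members (rows) between classes of mice, with 95% intervals, for susceptible minus resistant (left), resistant minus intermediate (middle) and susceptible minus intermediate mice (right). All 38 points lie above 0 in the middle panel, with Col4a1 (0.76) at the top and Postn (0.03) at the bottom.

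Susceptible minus intermediate mice differed little. Of 38 members 0 passed in limma, against 0.00927% of all tested probesets, and 0 with a random effect for mouse. At an unadjusted p under 0.05 there was 1 (16.1% of all tested probesets), Eln, tropoelastin (0.49, SE 0.21, adjusted p = 0.242), with a lowest, median and highest level of 6.34, 7.37 and 8.41 in susceptible mice and 6.08, 6.81 and 7.72 in intermediate mice. The median difference was 0.22, against -0.01 over all tested probesets, with 36 above 0, against 47.8% of all tested probesets. The highest was Lox (0.56) and the lowest Fbln1 (-0.17), and Thy1 (0.30), Col14a1 (0.55), Fap (0.39) and Col4a1 (0.26) were among the 6 of smallest p. Dcn differed by 0.38, Col1a1 by 0.30, Col3a1 by 0.28, Postn by 0.28, Col7a1 by 0.19, Acta2 by 0.16, Fn1 by 0.10 and Tnc by 0.07. The 3 class comparisons share mice, so these values are not independent of the ones above.

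The weeks until the first papilloma were known for 35 mice. No slope passed (0 of 38 in limma, against 0% of all tested probesets, and 0 with a random effect for mouse), and 3 members had an unadjusted p under 0.05, against 8.71% of all tested probesets. These were Lum (-0.09 log2 units per week, SE 0.03, adjusted p = 0.461), Postn (-0.04, SE 0.02, adjusted p = 0.551) and Fmod (0.05, SE 0.02), and Dcn (-0.06), Pdgfra (-0.05) and Loxl1 (-0.05) came next. The median slope was -0.01, with 12 above 0, against 46.6% of all tested probesets. Once the 6 mice of doubtful sex label were left out, 20 were above 0. Without mouse 32, which had the longest latency, 0 members had an unadjusted p under 0.05.

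Coat color, which marks a pigment locus of the cross, separated 17 agouti and 20 white mice, with sex as covariate. All 38 differences were above 0 (agouti minus white), with a median of 0.28, against 0.01 over all tested probesets, but 0 of 38 passed in limma, against 0.0741% of all tested probesets, and 0 with a random effect for mouse. At an unadjusted p under 0.05 there were 5 (Sparc 0.33, Thbs2 0.40, Col5a1 0.40, Col1a1 0.43 and Tagln 0.43), against 7.87% of all tested probesets. Sparc had a lowest, median and highest level of 11.43, 12.33 and 13.29 in agouti mice and 11.16, 12.20 and 12.72 in white mice (SE 0.15, adjusted p = 0.611). The widest difference was Lox (0.49) and the narrowest Fbln1 (0.05). Between them stood Acta2 (0.37), Fbln2 (0.35), Col3a1 (0.30), Dcn (0.30), Tnc (0.17), Fn1 (0.13), Postn (0.13) and Col7a1 (0.10). Of the 6 resistant mice 5 were agouti, and without resistant mice 34 and 35 the median was 0.18, with 32 above 0. Without the 6 mice of doubtful sex label it was 0.13, with 37 above 0 and 0 at an unadjusted p under 0.05.

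The days alive, known for 31 mice, gave 0 of 38 members in limma (0% of all tested probesets) and 0 with a random effect for mouse, and 0 members had an unadjusted p under 0.05. Days were known for only 3 of the 6 resistant mice. The median slope per 100 days was -0.17, against -0.02 over all tested probesets. Of the 38 slopes 35 were below 0, and 43.6% of all tested probesets were above 0. The slopes lay between -0.33 for Col1a1 and 0.14 for Acta2. The 6 members of smallest p were Fbln1 (-0.21), Col12a1 (-0.26), Postn (-0.27), Col1a1, Col6a2 (-0.25) and Col5a1 (-0.26). Without the 6 mice of doubtful sex label, 15 members had an unadjusted p under 0.05 and 0 passed, with a median of -0.32. The share of all tested probesets at that p was 5.51% in the main fit and was not computed without those mice. Mice with a carcinoma profiled (31) and without (6) also gave 0 of 38 (0% of all tested probesets) with both fits, and 0 at an unadjusted p under 0.05. The differences had a median of 0.01 (without the mice of doubtful sex label -0.06, with 13 above 0) and lay between -0.45 for Fmod (SE 0.23, adjusted p = 1.00) and 0.28 for Acta2. Fbln1 (-0.24), Col4a2 (0.18), Thbs1 (-0.18) and Postn (-0.17) followed by p, and Col1a1 stood at -0.12.

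Most other probesets of a member followed the one used, but not all. Among 35 other tested probesets of 25 members, 23 correlated above 0.8 with the one used. Besides that of Col1a1, those that disagreed most were a Sparc probeset (r = -0.49), a Fbln1 probeset (r = -0.07) and a Lox probeset (r = 0.43). Probesets of Eln (r = 0.49), Col1a2 (r = 0.55), Dcn (r = 0.56) and Tnc (r = 0.56) came next. The results for these genes refer to the probeset of highest mean.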

How the data were processed

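RNA of 68 papillomas from 37 mice was hybridised to Affymetrix whole-genome mouse arrays, 1 papilloma an array. The deposited columns hold log2 expression per probeset, which the authors computed with RMA (background correction, quantile normalization, probe summary); its version is not given in the sources used here. Array medians lay between 5.18 and 5.28. The number of arrays limits the precision.

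Probesets with 1 symbol in the platform annotation and above the array median on at least 11 of 68 arrays were tested (21581 of 45101). Papillomas of 1 mouse were averaged, so the mouse was the replicate. Comparisons, slopes and slopes between paired papillomas used limma 3.58.1 in R 4.3.3, ICC an F test with Benjamini-Hochberg adjustment over all tested probesets (threshold 0.05), and correlations with Col1a1 100000 permutations (two-sided). The code was tested on simulated data. Permutations and figures used Python 3.11.15 (numpy 2.4.6, matplotlib 3.10.9).

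Members and gene lists were chosen with earlier results of these data known. Named in each comparison were up to 12 members past the threshold or, if fewer than 6 passed, the 6 of smallest p, those with the highest and lowest estimates, and Col1a1, Col3a1, Dcn, Postn, Fn1, Tnc, Acta2 and Col7a1. Alternatives covered filters, probesets, array centring, covariates, mouse as a random effect and left-out mice.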

Additional observations from a re-analysis of the deposited data

Results flagged for a closer look

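Among mice with no carcinoma profiled, the Col4a1 level of 1 mouse lay far from the other 5: resistant mouse 34 stood at 12.09 on the log2 scale, and the nearest of the others at 10.70. This was the only such value among 76 tested by the gap to the nearest value over the range of the group (38 genes in each of 2 groups of 6 mice, the resistant mice and those with no carcinoma profiled). Chance flags about 1 in 20, and since the genes move together these tests are not independent. Mouse 34 was also the highest of all 37 mice for Col4a1, Col1a1, Col1a2, Sparc and Fmod.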

How the results depend on the processing

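No member passed in the class, latency, coat, days or carcinoma comparisons under any alternative, except for resistant minus intermediate mice. There 1 member (Col4a1) passed with genes above the array median on 34 arrays (adjusted p = 0.0498, against 0.998% of all tested probesets) and with arrays and mouse as a random effect (0.0225, 1.22%). With the papilloma number as a replicate block beside that effect 1 member passed (0.0238, 1.22%). The same member passed with arrays centred on the median (0.0415, 1.01%) and with sex and start cohort as covariates (0.0190, 1.08%). With the Actb ratio as a covariate 2 passed (4.45%). Leaving out each resistant mouse gave 0 to 3 members. The papilloma number only names the papillomas of a mouse, and the replicate block changed no other call. Leaving out each susceptible or resistant mouse in turn gave 0 members each time, with a median difference of -0.38 to -0.06. The other Col1a1 probeset, chosen after seeing the data, gave 3 members over mice and 19 within mice, with Fn1 at -0.024 and Fbln1 at -0.063 over mice. For the ICC, 16 members passed once the mice of doubtful sex label were left out, with Fn1 at -0.057. Under the other alternatives 28 to 35 members passed against Col1a1 over mice, 29 to 34 within mice, and 24 to 34 for the ICC. The share of all tested probesets moved as well, so these counts do not stand alone. Over mice it was 2.37% without the mice of doubtful sex label, against 11.1% in the main fit. Within mice it was 8.39% without the 3 pairs of largest Col1a1 difference, against 32.1%. For the ICC it was 48.0% with no filter on low values, against 71.0%. Leaving out mouse 32, leaving out mice 34 and 35 in the comparisons with intermediate mice or by coat, and the cornified markers as a covariate were also chosen after seeing the data. The cause of these changes was not tested.

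Differences with the opposite sign, none past the threshold in either fit, were as follows. For susceptible minus resistant mice these were Col7a1 with arrays as independent samples (0.025), Col3a1 with sex and cohort (0.039), and Lum (-0.18), Dcn (-0.28) and Postn (-0.060) with the Actb ratio. Without mice 34 and 35 they were Col1a1 (0.084), Col3a1 (0.21), Fn1 (0.098), Acta2 (0.045) and Col7a1 (0.21), and, leaving out the mice of doubtful sex, Col3a1 (0.064) and Col7a1 (0.049). Without mouse 32 they were Lum (-0.062) and Dcn (-0.099), and without mice 32 and 37 Lum (-0.22) and Dcn (-0.063). Leaving out each mouse in turn gave -0.31 to 0.027 for Col3a1, -0.28 to 0.080 for Col7a1, -0.099 to 0.54 for Dcn and -0.062 to 0.66 for Lum.

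For resistant minus intermediate mice, Postn (-0.11) and Dcn (-0.34) turned without the mice of doubtful sex, and Postn (-0.30), Dcn (-0.38) and Col7a1 (-0.021) without mice 34 and 35. Leaving out each resistant mouse in turn gave -0.16 to 0.48 for Dcn and -0.12 to 0.21 for Postn. For susceptible minus intermediate mice, Fn1 turned with probesets of highest variance (-0.34), and Fn1 (-0.056) and Tnc (-0.051) with sex and cohort. By coat, Fbln1 (-0.0054), Fn1 (-0.0046) and Tnc (-0.013) turned without mice 34 and 35. By weeks, Col7a1 turned by rank of weeks (0.0023), without the 2 mice of most extreme latency (0.023) and without mouse 32 (0.030), Col3a1 without mouse 32 (0.010), and Tnc with class as a covariate (-0.0091). By days, Fn1 (0.026) and Tnc (0.25) turned with probesets of highest variance, and Col7a1 with sex and cohort (0.10) and with centred arrays (0.0066). By carcinoma, Col3a1 turned with the random effect (-0.0098) and the replicate block (-0.0070), and Dcn (-0.11) and Fn1 (-0.076) without the mice of doubtful sex.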

Other observations

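Beyond the members, the genes most opposed to them over 37 mice were 4930404N11Rik (r = -0.79, rho = -0.79), Tradd (r = -0.74, rho = -0.66), Nav2 (r = -0.73, rho = -0.75), Fam131c (r = -0.72, rho = -0.68) and Plekhg1 (r = -0.72, rho = -0.75), all with levels near the array median. Striated muscle markers averaged between 5.01 and 9.85 over mice and correlated with the mean of the members at r = 0.57 (rho = 0.57). Adipocyte markers correlated at r = 0.48 (rho = 0.52) and mast cell markers at r = 0.60 (rho = 0.59). These are values with no test.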
